A study of Mus musculus with 20 samples.

Results

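Wheel running in mice fed oral contraceptives was examined in liver by comparing 5 running animals with 5 sedentary animals, all on the contraceptive diet. The 10 libraries were chosen by their group label alone, from 20 libraries in 4 groups of 5. The OC.VWR group had voluntary wheel running (VWR) on a diet with oral combined contraceptives (OC), and the OC.Sed group received the same diet and was sedentary. Both groups therefore carried the contraceptive, and activity was the only labelled difference between them. The vehicle diet groups, Con.VWR and Con.Sed, enter only where the running effect on that diet is set beside the one on OC. Each library came from the liver of 1 female mouse, so replicates were separate animals. Strain, age, the contraceptive compounds and their dose, and the distance and weeks of running are not given in the sources used here. Replicate numbers below follow accession order and pair no animals.

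Wheel running is a voluntary endurance exercise in which the liver supplies glucose and ketone bodies to working muscle and takes up lactate, glycerol and fatty acids in return. Repeated exercise is known to act on hepatic glucose output, fatty acid oxidation and lipid synthesis. Combined contraceptives hold an oestrogen and a progestin, which reach the liver through the portal vein and act there on plasma protein secretion, lipoprotein metabolism and the sex-dependent pattern of liver genes. The comparison asks what running did to liver transcripts once the animals were on that diet.

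No gene passed the test. Of 10207 genes tested, 0 (0.0%) passed an adjusted p of 0.05 for running against sedentary on OC (edgeR quasi-likelihood test, two-sided, Benjamini-Hochberg adjustment), and the smallest adjusted p was 0.683. At an unadjusted p under 0.05 there were 694 genes, 363 higher in running mice (3.56% of those tested) and 331 lower (3.24%). DESeq2 called 1 gene, Paqr9 (0.00981% of the genes to which it gave an adjusted p), and limma voom called 0, with 736 and 699 genes at an unadjusted p under 0.05. The median log2 fold change of all genes was -0.00, and 49.7% of genes lay above 0. All values below that concern running on OC are therefore fitted differences that did not pass, except where DESeq2 is named for Paqr9.

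The fitted differences were nevertheless bounded closely for most genes. The standard error of a log2 fold change had a median of 0.14, and the 95% interval lay wholly within a 2-fold difference in either direction for 9339 genes (91.5%). It lay within 1.5-fold for 7141 genes (70.0%). These intervals are not adjusted for the number of genes. Levels are given as CPM, the deposited counts scaled by library size with edgeR's TMM factors. Of the genes that averaged 1 CPM or more in the OC libraries, 25 had a fitted difference of more than 2-fold, and in 0 of these did the 5 running libraries stand clear of the 5 sedentary ones. Across all genes every running library lay above every sedentary library for 31 (0.304%), and every running library lay below for 77 (0.754%).

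Total counts ran from 12172401 to 14759028 in the sedentary OC libraries and from 12769367 to 14757592 in the running OC libraries, over the genes with intact lines. The hepatocyte markers, 16 of 22 with usable lines, summed to 155409 to 181031 CPM in sedentary and 134713 to 186664 CPM in running OC libraries, and none of them was at 0 in these libraries. Skeletal muscle transcripts were present in 3 of the 20 libraries. Mb, which encodes myoglobin, had 447 counts in OC sedentary replicate 3, 147 in OC running replicate 5 and 396 in vehicle running replicate 2, and at most 7 in any other library. In these OC libraries Pvalb, the calcium-binding parvalbumin of fast fibres, had 105 and 34 counts, against at most 1 in the other 8. Leaving the 3 libraries out gave 0 called genes and 642 at an unadjusted p under 0.05. The muscle genes Des, Srl and Pygm, chosen after their values were seen, had log2 fold changes of -1.25, -1.50 and -1.55 with these libraries and 0.13, 0.14 and 0.33 without them.

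The smallest p belonged to Paqr9 (chromosome 9, 95559657 to 95568023, plus strand of GRCm38), which encodes a membrane receptor of the progestin and adipoQ receptor family, also called membrane progestin receptor epsilon. In sedentary OC livers its level was 487, 393, 366, 339.8 and 414 CPM. In running OC livers it was 193, 195, 215, 386 and 197 CPM. Replicates 1, 2, 3 and 5 of the running group lay below all sedentary libraries, and replicate 4 lay within their range. The log2 fold change was -0.75 (SE 0.16, 95% interval -1.08 to -0.43, unadjusted p = 8.53e-05, edgeR adjusted p = 0.683), a 1.69-fold lower level. In DESeq2 the adjusted p was 0.0252. Without running replicate 4 the log2 fold change was -1.0004 and the edgeR adjusted p was 5.25e-05, so that 1 library decided whether edgeR called it. On the vehicle diet the running value of Paqr9 was 0.30, with 288 ± 19.1 CPM in sedentary and 355 ± 29.6 CPM in running livers (SD, n = 5). The difference between the running values on OC and on vehicle was -1.05 (SE 0.22), with an unadjusted p of 9.59e-05 and an edgeR adjusted p of 0.163. DESeq2 called this difference with all libraries (adjusted p = 0.00193), and edgeR called it without OC running replicate 4 (adjusted p = 0.000107).

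A second membrane progestin receptor stood among the 15 lower genes of smallest p. Paqr7, membrane progestin receptor alpha, was at 59.0, 44.1, 38.1, 63.3 and 37.1 CPM in sedentary and 27.5, 30.6, 40.4, 31.9 and 30.2 CPM in running OC livers. Its groups overlapped through running replicate 3, and the log2 fold change was -0.59 (SE 0.17, interval -0.95 to -0.23, unadjusted p = 0.0025). The other tested members of the family that bear the name, Paqr3, Paqr4 and Paqr8, chosen after values were seen, had log2 fold changes of -0.26, -0.30 and -0.22 with intervals that held 0. Paqr5 and Paqr6 were too low to test, with 0 and 5 counts over the 5 sedentary and 3 and 5 over the 5 running OC libraries. The nuclear progesterone receptor gene Pgr, with 22 and 19 counts, was likewise not tested. Pgrmc1 and Pgrmc2, membrane-associated progesterone-binding haem proteins, had log2 fold changes of 0.13 and -0.10.

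Srd5a1, steroid 5-alpha-reductase, which reduces progestins and androgens, was at 112, 97.4, 71.6, 65.7 and 81.8 CPM in sedentary and 57.6, 54.3, 77.6, 59.3 and 55.7 CPM in running OC livers. Running replicates 1, 2, 4 and 5 lay below all sedentary libraries and replicate 3 lay among them (log2 fold change -0.49, SE 0.16, unadjusted p = 0.00674). On vehicle the running value was 0.68, and the difference between the diets was -1.17 (unadjusted p = 6.91e-05, edgeR adjusted p = 0.141). DESeq2 called the vehicle value (adjusted p = 0.0454), and edgeR did not. Of 16 tested genes among 32 steroid receptors and enzymes of steroid metabolism, Srd5a1 alone had an unadjusted p under 0.05, and the median was -0.09.

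**Figure D1:**
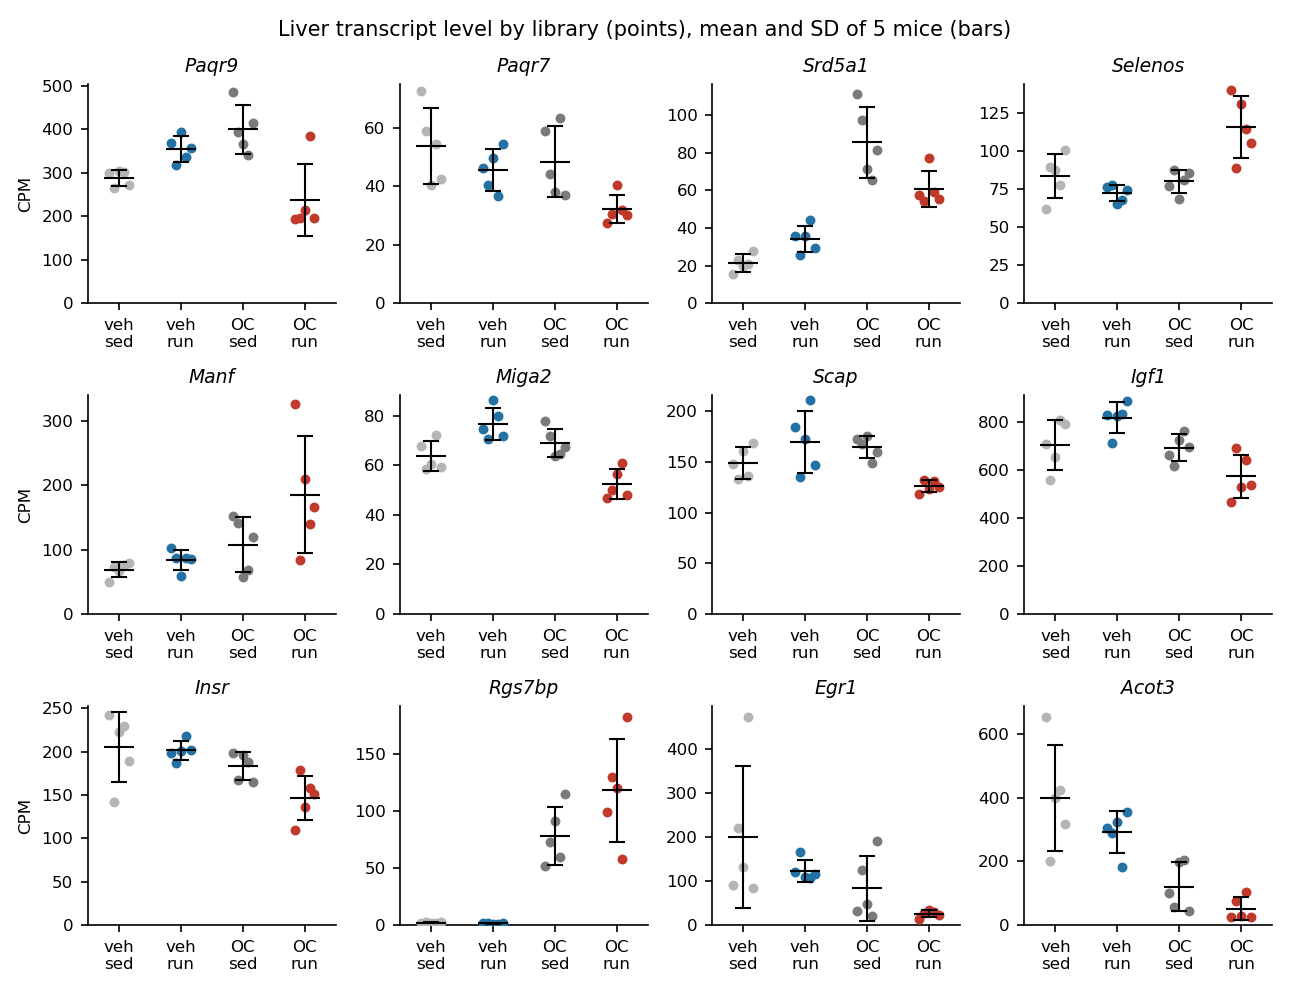
CPM of 12 genes (vertical axes, each from 0) in the 4 groups, with 1 point per mouse and bars for the mean and SD of 5 mice. In the OC groups Paqr9 and Srd5a1 each have 1 running library, at 386 and 77.6 CPM, that lies apart from the other 4, and Miga2, Selenos and Scap are the panels in which the OC running and sedentary points do not overlap.

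Several of the other genes of smallest p encode parts of the secretory pathway. Selenos (chromosome 7, 66079649 to 66089405), a selenoprotein of the endoplasmic reticulum (ER) that takes part in removing misfolded proteins, was at 77.1, 87.2, 68.5, 80.9 and 85.7 CPM in sedentary and 139.6, 88.7, 131, 114 and 105 CPM in running OC livers. The groups did not overlap, though running replicate 2 lay close to the highest sedentary library (log2 fold change 0.53, SE 0.12, unadjusted p = 0.000301). Spcs2, a subunit of the signal peptidase, was at 0.53, and Srp9, of the signal recognition particle, at 0.45. Bet1, a SNARE of transport from the ER to the Golgi, was at 0.50, Tmed3, a cargo receptor of the same route, at 0.71, and Get4, which helps deliver tail-anchored proteins to the ER, at 0.30. These 6 genes were picked by their p and not by their role, and secretory genes as a class were not compared with others.

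The remaining higher genes were Tmeff2, Trabd, Etfbkmt, Dus1l, Mrpl46, Tspyl2, Bbs7, Ddx39 and Pcgf1, with log2 fold changes between 0.32 and 1.14. Tmeff2 had the largest value and was low, at 1.42 to 2.48 CPM in sedentary and 2.10 to 7.61 CPM in running OC livers. Etfbkmt encodes a methyltransferase of the electron transfer flavoprotein, the electron acceptor of fatty acid oxidation. Its log2 fold change was 0.57 on OC and -0.35 on vehicle.

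Among the lower genes Miga2, which encodes a mitochondrial outer membrane protein that promotes mitochondrial fusion, was at 77.8, 71.7, 63.9, 64.4 and 67.3 CPM in sedentary and 47.0, 50.2, 56.5, 60.8 and 48.1 CPM in running OC livers. The groups did not overlap (log2 fold change -0.39, SE 0.09, unadjusted p = 0.000264). On vehicle its running value was 0.27. The difference between diets was -0.66 (edgeR adjusted p = 0.0995, the smallest of that test, shared by Egln1 among other genes). Egln1, the prolyl hydroxylase that marks hypoxia-inducible factors for breakdown, was at -0.26 on OC and 0.29 on vehicle. DESeq2 called its vehicle value (adjusted p = 0.0451), and edgeR did not. Its difference between diets had an adjusted p of 0.0472 in edgeR without OC running replicate 2. Scap, which escorts the sterol-sensing transcription factors SREBP to the Golgi, was at 172, 168, 175, 148 and 159 CPM in sedentary and 118, 132, 123, 131 and 126 CPM in running OC livers, again without overlap (log2 fold change -0.39, SE 0.10, unadjusted p = 0.00134). The lower genes also included Epb41l3, Gprin3, Rnf152, Gpr155, Zfp516, Fbxl17, Sipa1l1, Ccdc88a and Egr1.

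Egr1, an immediate early transcription factor, had the lowest fitted value of all genes tested, a log2 fold change of -1.69 (SE 0.52, unadjusted p = 0.00381). It was at 31.6, 126, 48.5, 19.5 and 191 CPM in sedentary and 14.4, 27.3, 35.1, 30.4 and 21.9 CPM in running OC livers. Sedentary replicates 2 and 5 were high, replicates 1 and 4 lay within the running range, and replicate 3 lay above it. Without sedentary replicate 5 the value was -1.13. Of the 23 tested immediate early genes, Egr1 alone had an unadjusted p under 0.05, and the median was -0.12, or 0.00 without sedentary replicate 5. The highest fitted value was that of Flrt1, a fibronectin leucine-rich transmembrane protein, chosen after its values were seen, at 1.92 (SE 0.61, unadjusted p = 0.00483). It was at 3.57, 4.49, 7.68, 1.08 and 6.98 CPM in sedentary and 11.1, 3.02, 8.95, 4.17 and 61.7 CPM in running OC livers, so that running replicate 5 held most of it.

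**Figure D2:**
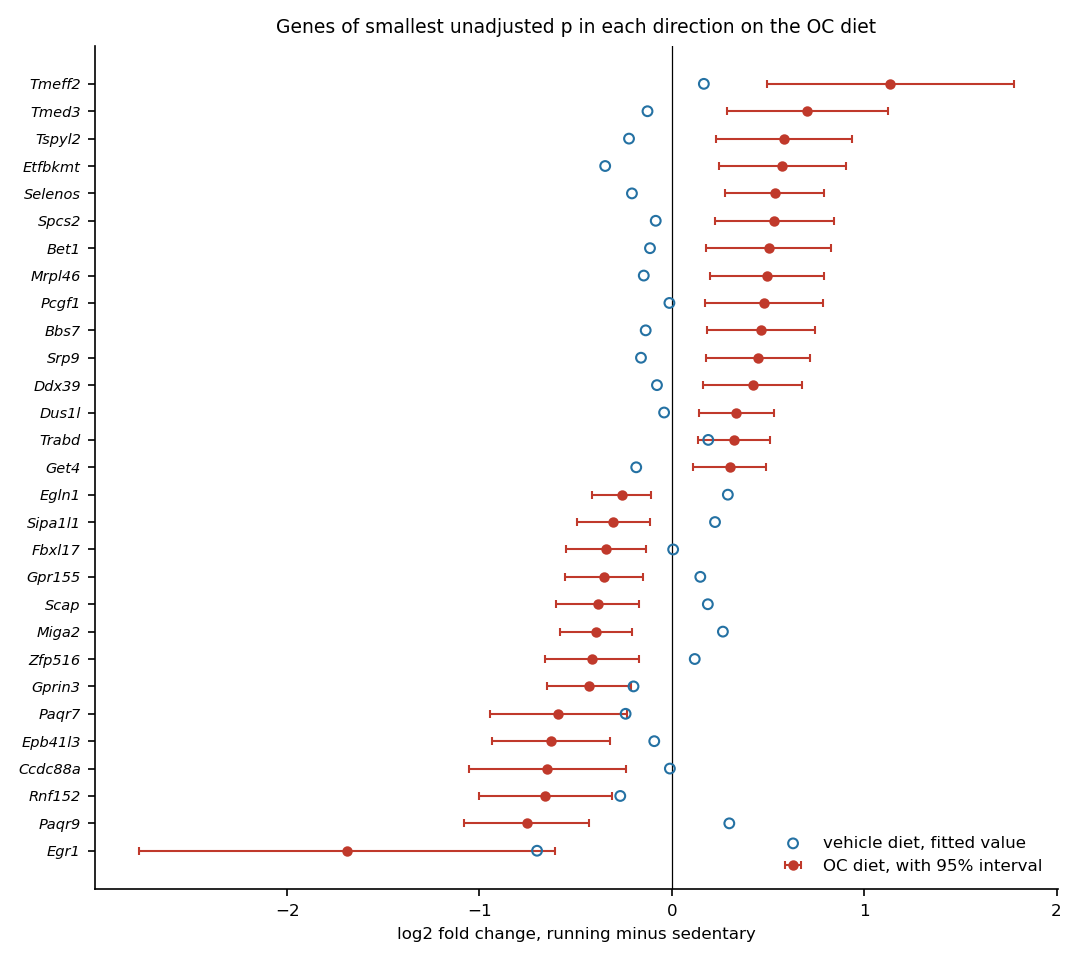
Fitted log2 fold change, running minus sedentary (horizontal axis), for the named genes of smallest unadjusted p in each direction on OC, with 95% intervals not adjusted for the number of genes, and the vehicle value as an open circle. The genes were chosen by their OC values, so their filled points lie away from 0 by construction, while the open circles of Miga2, Egln1 and Paqr9 lie on the other side of 0 at 0.27, 0.29 and 0.30.

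All 74 tested genes of 78 cytosolic ribosomal proteins lay above 0 in running OC livers, with a median log2 fold change of 0.27 against -0.00 over all genes, and 16 had an unadjusted p under 0.05 (against 3.56% of all genes in that direction). In the shortest of 5 bins of genes by transcript length, given below, 74.5% of genes lay above 0. There 7.1% of genes were higher at an unadjusted p under 0.05. None of the ribosomal genes passed after adjustment. Many of these genes have processed pseudogenes, between which reads can be split, and how such reads were counted is not given in the sources used here. Their 95% intervals all lay within 2-fold. Rpl7, a protein of the large subunit, was at 374, 428, 359, 443 and 427 CPM in sedentary and 574, 436, 538, 502 and 431 CPM in running OC livers, with running replicates 2 and 5 inside the sedentary range (log2 fold change 0.29, SE 0.10, unadjusted p = 0.00856). Averaged over the list, the mean log2 CPM was 8.03, 8.34, 8.15, 8.52 and 8.52 in sedentary and 8.94, 8.32, 8.74, 8.56 and 8.24 in running OC libraries. Running replicates 1, 3 and 4 lay above all sedentary libraries and replicates 2 and 5 did not. Without running replicate 1 the median was 0.16 and 2 genes had an unadjusted p under 0.05, and without running replicate 5 these were 0.33 and 50 genes. Without running replicate 2 they were 0.33 and 35 genes.

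Ribosomal proteins of the mitochondrion lay mostly on the same side. Of 78 tested among 96, 72 lay above 0 and 12 had an unadjusted p under 0.05 in that direction, with a median of 0.17. The shares over all genes were 49.7% and 3.56%. Mrps6, of the small mitochondrial subunit, was at 21.5, 21.8, 13.9, 17.3 and 18.2 CPM in sedentary and 42.0, 16.8, 27.4, 26.2 and 29.2 CPM in running OC livers, and running replicate 2 alone lay within the sedentary range (log2 fold change 0.61, SE 0.20). Mrpl46, of the large subunit, had a log2 fold change of 0.50. The 41 tested nucleolar genes of ribosome assembly had a median of -0.01, with 19 above 0 and 0 at an unadjusted p under 0.05. Their transcripts are longer, with a median of 3113 bases against 1100 for cytosolic ribosomal proteins.

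Nuclear genes of the respiratory chain lay above 0 as well. Of 36 tested subunits of complex I, which oxidises NADH, 33 lay above 0 and 10 had an unadjusted p under 0.05, with a median of 0.23. Over all genes 49.7% lay above 0 and 3.56% were higher at that p. In the shortest length bin these shares were 74.5% and 7.1%. Ndufb7 was at 109.7, 129, 103, 118 and 118 CPM in sedentary and 169, 118, 157, 151 and 121 CPM in running OC livers, and running replicates 2 and 5 lay within the sedentary range (log2 fold change 0.31, SE 0.10). Ndufa1 had a value of 0.37. Without running replicate 1 the complex I median was 0.16 and 2 genes had an unadjusted p under 0.05, and without running replicate 2 these were 0.29 and 17. All 16 tested genes of 41 of complexes II to V lay above 0, again with a median of 0.23 and with 0 at an unadjusted p under 0.05. Cox4i1, of cytochrome c oxidase, was at 480.0, 595, 478, 639.6 and 628 CPM in sedentary and 902, 585, 754, 697 and 527 CPM in running OC livers, with overlapping groups (log2 fold change 0.30, SE 0.15). Every tested gene of both lists had a 95% interval within 2-fold. Genes of mitochondrial biogenesis, dynamics and quality control showed no such shift, with 14 of 28 above 0 and a median of 0.00. Mfn2, the outer membrane fusion protein mitofusin, was lower without overlap, at 170.2, 156, 166, 148 and 153 CPM in sedentary and 103, 134, 124, 139 and 141 CPM in running OC livers (log2 fold change -0.31, SE 0.12, unadjusted p = 0.0222).

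**Figure D3:**
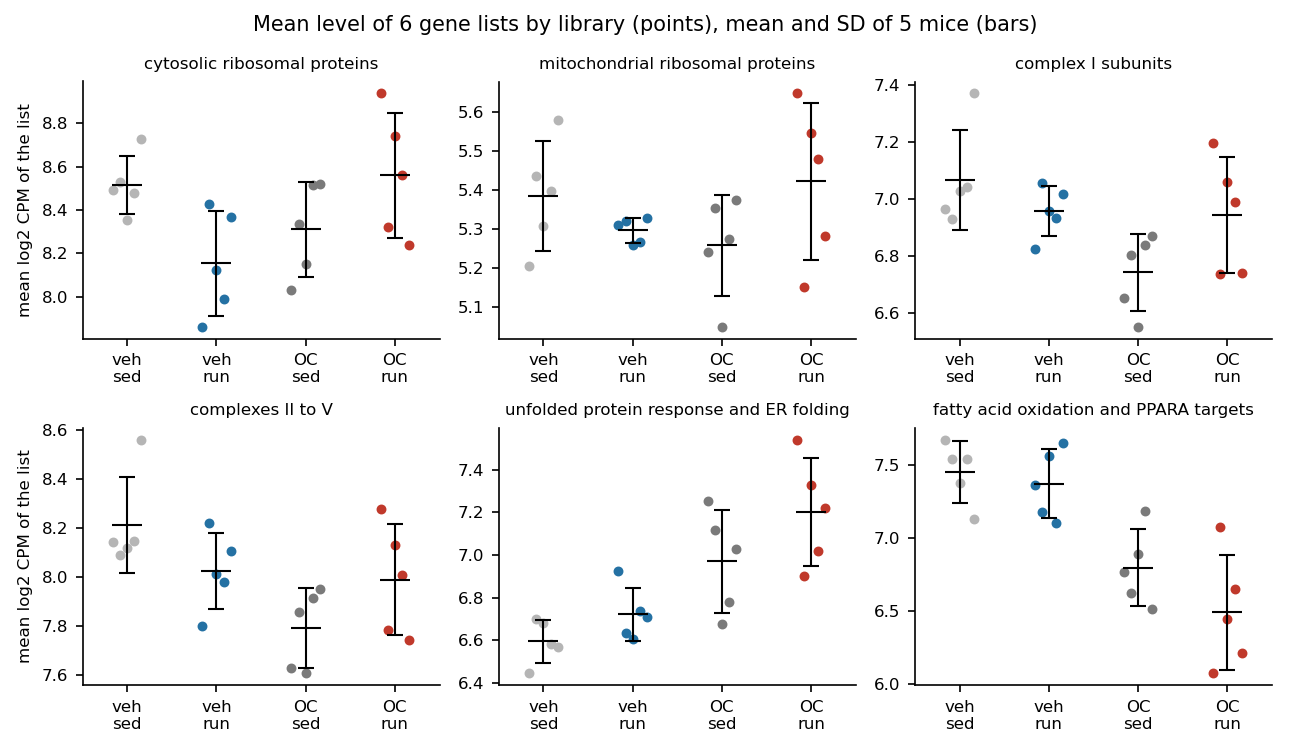
Mean log2 CPM over the tested members of 6 gene lists (vertical axes, not from 0) in the 4 groups, with 1 point per mouse and bars for the mean and SD of 5 mice. In the ribosomal and respiratory panels OC running replicates 1, 3 and 4 lie high, at 8.94, 8.74 and 8.56 for cytosolic ribosomal proteins, and replicates 2 and 5 lie within the OC sedentary range.

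The ribosomal and respiratory genes have short transcripts, and transcript length moved with the fitted running effect over the whole transcriptome. Over 10206 genes the Spearman correlation between the log2 fold change on OC and the length of the longest annotated transcript was -0.351, a description over genes that share the same 10 libraries. In 5 bins of equal size the median log2 fold change was 0.12 in the shortest (median length 1310 bases) and -0.09 in the longest (6665 bases). The shortest bin held 146 genes higher and 10 lower at an unadjusted p under 0.05, and the longest held 25 and 142. The median length was 1100 bases for the cytosolic ribosomal list, 1026 for complex I and 3273 for all genes. It was 3113 bases for the nucleolar list and 3128 for mitochondrial biogenesis, dynamics and quality control. The bin from 2805 to 3798 bases had a median log2 fold change of -0.02. The correlation with transcript GC content was -0.056.

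The length trend differed between libraries of 1 group. The Spearman correlation over genes between length and a library's deviation from the mean of the 10 OC libraries was -0.362, -0.348 and -0.279 in running replicates 1, 3 and 4, and 0.248 and 0.144 in running replicates 2 and 5. In the sedentary OC libraries it was 0.152, 0.078, 0.346, 0.063 and -0.049. The running libraries with low values were those with high ribosomal and respiratory lists. With the trend of each library removed, an alternative chosen after seeing the data that also takes out any running effect that follows length, the medians were 0.16 for cytosolic ribosomal proteins, 0.10 for complex I, 0.07 for complexes II to V and 0.11 for mitochondrial ribosomal proteins. Then 5, 7, 0 and 6 of their genes had an unadjusted p under 0.05. The part of RNA quality or library preparation in this trend was not tested.

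**Figure D4:**
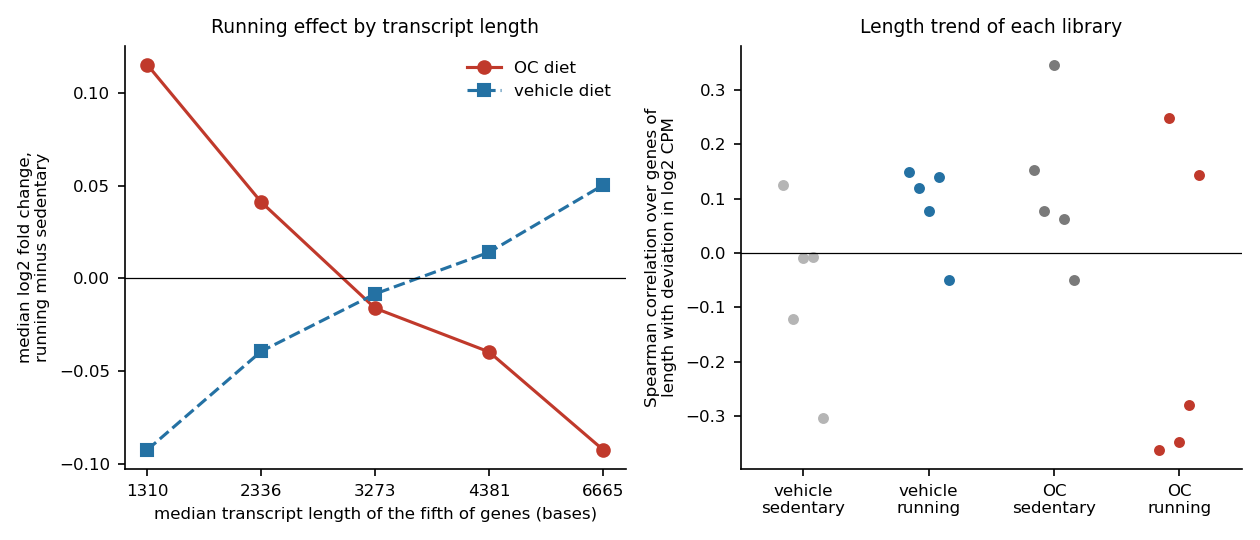
Left, the median log2 fold change, running minus sedentary, in 5 bins of genes by transcript length, on each diet. Right, 1 point per library, the Spearman correlation over genes between transcript length and the deviation in log2 CPM from the mean of the 10 libraries of that diet. On OC the left line falls from 0.12 to -0.09, and on the right 3 OC running libraries lie from -0.362 to -0.279 and the other 2 at 0.144 and 0.248.

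Genes of the unfolded protein response and of ER folding, which expand the folding capacity of secretory cells, lay mostly above 0. Of 27 tested among 36, 24 lay above 0, and 7 had an unadjusted p under 0.05, with a median of 0.15. Over all genes 49.7% lay above 0 and 3.56% were higher at that p. In the length bin from 1859 to 2805 bases these shares were 58.5% and 4.2%. The median length of the ER list was 2513 bases, and with the length trend removed its median was 0.16 with 4 genes at an unadjusted p under 0.05. Without running replicate 1 there was 1 such gene, and without running replicate 2 there were 12. The list median was 0.10 without sedentary replicate 4 and 0.25 without sedentary replicate 1. It was 0.09 without the 3 libraries with muscle transcripts. Manf, a secreted protein that is induced by ER stress, was at 153, 141, 57.2, 68.3 and 120.0 CPM in sedentary and 326, 84.3, 211, 140.1 and 166 CPM in running OC livers, with a wide overlap (log2 fold change 0.78, SE 0.29, unadjusted p = 0.0130). The integrated stress response list, which shares the ER stress input through ATF4, had a median of 0.01 over 23 tested genes. Heat shock genes had a median of 0.02 over 18. Among them the inducible chaperone gene Hspa1a, which has a near-identical copy in Hspa1b and is uncertain for that reason, was at 5.32, 2.15, 1.46, 0.881 and 1.86 CPM in sedentary and 1.47, 1.05, 0.597, 0.805 and 1.10 CPM in running OC livers, so that sedentary replicate 1 held much of its log2 fold change of -1.20, which was -0.66 without it.

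Genes of fatty acid oxidation and targets of PPARA, the nuclear receptor of fasting lipid use, lay on the other side. Of 26 tested among 50, 24 lay below 0 and 4 had an unadjusted p under 0.05 in that direction, with a median of -0.29, and none passed after adjustment. Over all genes 3.24% were lower at that unadjusted p, and 49.7% lay above 0. Acot3, a peroxisomal thioesterase, was at 99.2, 56.9, 197, 204 and 43.4 CPM in sedentary and 25.4, 76.9, 27.6, 103 and 26.2 CPM in running OC livers, with overlapping groups and a wide spread among sedentary mice (log2 fold change -1.21, SE 0.44, unadjusted p = 0.0123). Its neighbour Acot4, another thioesterase, had a value of -0.55. Sequence shared within this enzyme family could split reads between members, since the counting rule is not given in the sources used here. The list median was -0.17 without running replicate 1 and -0.43 without running replicate 2, which lay at 7.08 in mean log2 CPM against 6.07 to 6.65 in the other 4 running libraries. With the length trend removed it was -0.31, and without the 3 libraries with muscle transcripts it was -0.25. Without those libraries Acot3 and Acot4 had values of -0.81 and -0.38 (unadjusted p = 0.113 and 0.164, edgeR). Ppara itself had a value of -0.30 (interval -0.69 to 0.09).

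Lipid synthesis showed smaller fitted values. Of 32 tested genes of fatty acid and triglyceride synthesis 11 lay above 0, with a median of -0.15, and the desaturase gene Fads2 alone had an unadjusted p under 0.05. It was at 1166 to 1396 CPM in sedentary and 671 to 1039 CPM in running OC livers, without overlap (log2 fold change -0.48, SE 0.20). Of 30 tested cholesterol genes 7 lay above 0, with a median of -0.17. In this list 2 genes had an unadjusted p under 0.05, both lower, and Scap was one of them. Some lipid genes had wide intervals. Scd1 and Fasn, of fatty acid desaturation and synthesis, had values of -0.33 and -0.23, and the lower ends of their intervals lay at -1.42 and -1.39.

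Glucose handling and insulin signalling were mostly near 0. The 24 tested genes of glucose output, glycogen and glycolysis had a median of -0.07, and all 24 intervals lay within 2-fold. Gys2, liver glycogen synthase, had a value of -0.32 on OC (unadjusted p = 0.0301) and -0.61 on vehicle. The vehicle value was called by DESeq2 (adjusted p = 0.0225) and not by edgeR. In the insulin and FOXO1 list 5 of 22 genes lay above 0, with a median of -0.11 and 3 lower at an unadjusted p under 0.05. Insr, the insulin receptor, was at 199, 167, 196, 189 and 165 CPM in sedentary and 109, 178, 137, 158 and 151 CPM in running OC livers, where replicate 2 overlapped the sedentary range (log2 fold change -0.32, SE 0.13). It was -0.21 with the length trend removed. Genes of the tricarboxylic acid cycle had a median of -0.08 over 12, with Aco1 and Ogdh at -0.29 and -0.25. The 38 tested genes of the urea cycle and amino acid catabolism had a median of -0.07 and 0 at an unadjusted p under 0.05.

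Igf1, the main endocrine product of growth hormone action in the liver, was at 662, 617, 725, 765 and 697 CPM in sedentary and 467, 691, 531, 642 and 538 CPM in running OC livers. Running replicates 1, 3 and 5 lay below all sedentary libraries, and replicates 2 and 4 lay among them (log2 fold change -0.27, SE 0.12, unadjusted p = 0.0285). In the growth hormone list 7 of 22 genes lay above 0, with a median of -0.15, and Igf1 and Il6st were the 2 genes at an unadjusted p under 0.05. Without sedentary replicate 3, a library with muscle transcripts, the list median was -0.00. With the length trend removed the values of Igf1 and Il6st were -0.19 and -0.15 (unadjusted p = 0.0983 and 0.0753, edgeR). Socs2, the feedback inhibitor of the growth hormone receptor, had a value of -0.94 that was -0.30 without sedentary replicate 3. The female-biased and male-biased liver lists, which growth hormone pulses and sex steroids set, had medians of -0.10 over 18 and 0.06 over 27 genes. For the male-biased list only 11 of 27 intervals lay within 2-fold, and the median ranged from -0.36 to 0.38 as single OC libraries were left out. Mup20, a male-biased urinary protein of a family of close copies, and so uncertain, was at 7351, 10373, 4341, 7907 and 12588 CPM in sedentary and 13425, 6301, 11734, 4779 and 8348 CPM in running OC livers (log2 fold change 0.07, interval -1.14 to 1.27).

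Secreted factors that are often followed in exercise studies did not separate the groups. Fgf21, a fasting and stress hormone of the liver, was at 4.88, 2.41, 1.77, 4.61 and 5.66 CPM in sedentary and 3.75, 4.14, 3.13, 3.51 and 1.52 CPM in running OC livers (log2 fold change -0.27, interval -1.26 to 0.72). Gdf15, a stress-induced cytokine, was at 208, 279, 70.4, 49.3 and 419 CPM and at 375, 120.1, 267, 180.2 and 389.7 CPM (0.38, interval -0.73 to 1.48). Igfbp1, an insulin-suppressed binding protein, was at 116, 307, 344, 356 and 305 CPM and at 269.8, 864, 457, 226 and 264 CPM (0.54, interval -0.26 to 1.34), and its value was 0.09 without running replicate 2. Fst, the activin inhibitor follistatin, and Angptl4, an inhibitor of lipoprotein lipase, had values of 0.46 and -0.11 with intervals that held 0. Without running replicate 1 the value of Fst was 0.24, and without running replicate 2 that of Angptl4 was -0.52 (unadjusted p = 0.0258). For Gdf15 it was 0.81 without sedentary replicate 5, and for Fgf21 -0.46 without sedentary replicate 3. Per1 of the circadian clock was at 0.07 (interval -0.23 to 0.37), or -0.09 without running replicate 2, and the clock list had a median of -0.02 over 18 genes with 0 at an unadjusted p under 0.05.

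Rgs7bp and Lifr were in the panel because earlier results of these libraries showed them to differ between the diets. Rgs7bp, a binding partner of G-protein regulators, was low on vehicle (2.17 ± 0.511 CPM sedentary and 1.49 ± 0.517 CPM running, SD, n = 5). It was at 51.9, 72.8, 91.2, 60.1 and 116 CPM in sedentary and 99.1, 130.4, 121, 58.3 and 183 CPM in running OC livers. Running replicate 4 lay near the bottom of the sedentary range and replicates 2, 3 and 5 lay above it (log2 fold change 0.60, SE 0.24, unadjusted p = 0.0197). Without running replicate 5 the value was 0.38. Lifr, the leukaemia inhibitory factor receptor, was at 1335 to 2082 CPM in sedentary and 1037 to 3567 CPM in running OC livers (0.30, interval -0.26 to 0.86), and its value was 0.01 without running replicate 5. Of the 50 panel genes, most of them metabolic and hormonal genes followed in exercise studies, 38 were tested, 22 of them with an interval within 2-fold.

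Replicate 2 of the running OC group differed from the other 4 in genes that respond to glucocorticoids and fasting. Its mean log2 CPM over that list was 8.54 against 6.94 to 7.62 in the other running libraries, and 6.87 to 7.78 in the sedentary ones. Fkbp5, which buffers the glucocorticoid receptor, was at 377 CPM there against 83.4 to 143 in the other 4. Without this library 1421 genes had an unadjusted p under 0.05, 738 higher and 683 lower, and 0 were called. Without running replicate 1 there were 298, without replicate 3 there were 409, without replicate 4 there were 648 and without replicate 5 there were 981. Replicate 2 also had the highest correlation with transcript length of the running libraries, at 0.248. The part of the length trend or of the glucocorticoid and fasting genes in these counts was not tested.

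Markers of other liver cell types gave no uniform shift, and in bulk tissue fewer cells of a type and less RNA per cell cannot be told apart. The macrophage genes Adgre1 and Csf1r had log2 fold changes of -0.40 and -0.39 at unadjusted p of 0.0104 and 0.0151, within a list of 25 whose median was 0.01. The summed level of that list was 836 to 1183 CPM in sedentary and 769 to 1201 CPM in running OC libraries. Lymphocyte and neutrophil genes had a median of 0.15 over 17, which was 0.00 without running replicate 1 and 0.40 without sedentary replicate 4. They summed to 49.95 to 133 CPM in sedentary and 47.9 to 201 CPM in running OC libraries. The neutrophil gene S100a9 was at 1.75, 1.56, 0.922, 1.22 and 2.56 CPM in sedentary and 5.01, 1.19, 3.65, 7.25 and 1.58 CPM in running OC livers (log2 fold change 1.21, SE 0.42). Stellate and endothelial lists had 15 of 23 and 19 of 25 genes below 0, with medians of -0.11 and -0.11. Each median was 0.01 with 1 library left out, sedentary replicate 4 for the first and running replicate 4 for the second. Without running replicate 2 the medians were -0.20 and -0.21. Interferon genes lay mostly below 0, with 33 of 41 on that side, 1 of them at an unadjusted p under 0.05. Their median was -0.19, and it ranged from -0.27 to -0.11 over the 18 alternatives, the last without running replicate 2. Of 39 cell cycle genes 26 lay below 0, with a median of -0.17, or -0.08 without running replicate 1. Over all genes 49.7% lay above 0.

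Running was next set beside the same comparison on the vehicle diet, which shares no library with it. There edgeR called 0 genes (0.0%), with 705 higher (6.91%) and 709 lower (6.95%) at an unadjusted p under 0.05, and DESeq2 called 42 (0.412%). The interaction test, which asks whether running had a different effect on the 2 diets, called 0 genes in edgeR (0.0%), with a smallest adjusted p of 0.0995 and 1802 genes (17.7%) at an unadjusted p under 0.05. DESeq2 called 119, which is 9.14% of the 1302 genes to which its filter on low means left an adjusted p, and limma voom called 0. Besides Paqr9, the DESeq2 calls included Scap (adjusted p = 0.0202), Mfn2 (0.0231), Srp9 (0.0371), Ndufa1 (0.0371) and Igf1 (0.0425). Over all genes the 2 running effects had a Spearman correlation of -0.265, a description over genes that are not independent, and 62.4% of genes had opposite signs. The correlation was -0.261 without vehicle sedentary replicate 2, which stood apart in the second principal component of all libraries at 53.0.

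The ribosomal and respiratory lists, above 0 on OC, lay below 0 on vehicle. Cytosolic ribosomal proteins had a median of -0.36 on vehicle, with 56 of 74 genes at an unadjusted p under 0.05 in the lower direction, and 0 called by edgeR. The difference between diets had a median of 0.63, and 71 of the 74 genes had an unadjusted p under 0.05, all higher on OC, against 9.02% of all genes in that direction. edgeR called 0 of them and DESeq2 45, among them Rpl7 (adjusted p = 0.00977). Over all genes DESeq2 called 9.14% of the 1302 to which its filter on low means left an adjusted p. How many of the 74 were among those 1302 was not counted. With the length trend removed the median was 0.41, and 55 genes had an unadjusted p under 0.05. Leaving out single vehicle libraries moved the vehicle median between -0.44 and -0.29. Between 26 and 62 genes were then lower on vehicle at an unadjusted p under 0.05. Complexes II to V had -0.26 on vehicle, mitochondrial ribosomal proteins -0.11 and complex I -0.10, the last moving to -0.02 without vehicle sedentary replicate 5. With the length trend removed these vehicle medians were -0.12, -0.05 and 0.00. Cholesterol genes, at -0.17 on OC, had 0.28 on vehicle, and fatty acid and triglyceride synthesis, at -0.15 on OC, had 0.23. For both lists the mean log2 CPM of running and sedentary libraries overlapped on each diet. For cholesterol genes it was 6.885 to 7.433 in sedentary and 6.305 to 7.271 in running OC libraries. On vehicle it was 6.257 to 7.32 in sedentary and 6.586 to 7.44 in running libraries. The ER folding list was above 0 on both diets, at 0.15 and 0.12. On vehicle the correlation of the running effect with transcript length was 0.202, opposite in sign to that on OC, and with the length trend removed the ribosomal median was 0.16 on OC and -0.26 on vehicle.

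**Figure D5:**
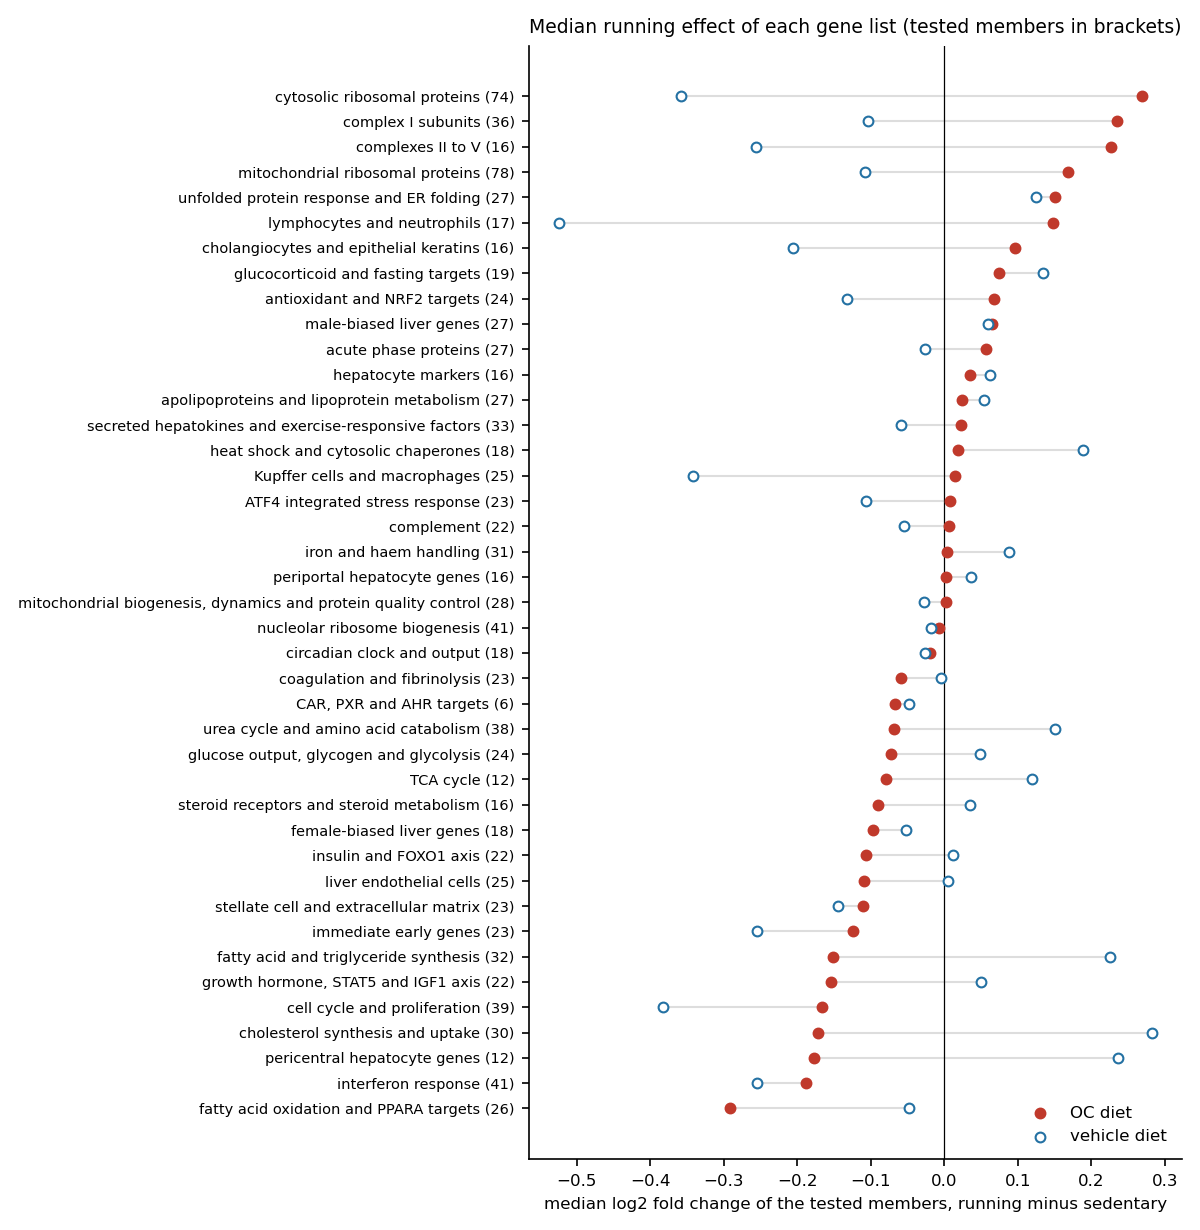
Median log2 fold change, running minus sedentary, of each gene list with at least 5 tested members (tested number in brackets), filled for OC and open for vehicle. Cytosolic ribosomal proteins lie at 0.27 on OC and -0.36 on vehicle, cholesterol genes at -0.17 and 0.28, and fatty acid oxidation genes lowest on OC at -0.29.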

How the data were processed

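Stranded paired-end libraries were made from liver RNA of individual mice, per the labels' protocols. The submitters' processing notes name STAR, the mm10 build, R 4.05 and limma. The program that counted reads and its strand setting are not given in the sources used here. The deposited table was treated as estimated counts per gene with no scaling between libraries, because 2 genes held values that were not whole; the design had assumed counts. Every value used was whole, so rounding changed none. Of 35504 genes, 23993 (67.58%) had an intact line and were used. In the other 11511 a comma in the description had moved values or left them in doubt, so many list members are missing.

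The fit used edgeR 4.0.16 under R 4.3.3, with filterByExpr, TMM factors (0.995 to 1.114 in OC libraries) and a quasi-likelihood model of 1 mean per group over all 20 libraries. P-values of 10207 genes were adjusted by Benjamini-Hochberg at 0.05. DESeq2 1.42.0, limma 3.58.1 voom and the settings in the closing section were alternatives, 2 of them (muscle libraries left out, length trend removed) chosen after seeing the data. Steps were tested on simulated data. Positions and transcript lengths came from GENCODE vM21 on GRCm38, the same assembly as mm10.

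The comparison and the 47 gene lists were chosen with earlier results of these data known. As edgeR called no gene, the named genes are the 15 of smallest p in each direction (mean of at least 1 CPM, no predicted genes), up to 2 members of smallest p per list and a panel of 50, given as values only. A few of these genes are not reported here. Skeletal muscle and erythroid lists had 0 tested members.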

Additional observations from a re-analysis of the deposited data

Results flagged for a closer look

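In 5 of 58 groups of 5 libraries looked at (the genes given by library and 4 list means, in each OC group), the highest or lowest library lay far from its group, by Dixon's ratio at the 95% level. Chance gives this in about 1 group in 20 where groups are chosen without regard to their values. Many of these genes were chosen by their p or after values were seen, so that rate does not hold for them. Paqr9 was at 386 CPM in OC running replicate 4, against 193 to 215 in the other 4 running libraries. Srd5a1 was at 77.6 CPM in OC running replicate 3, against 54.3 to 59.3. Flrt1 was at 61.7 CPM in OC running replicate 5, against 3.02 to 11.1, and this library also held muscle transcripts. In the sedentary OC group replicate 1 was at 5.32 CPM for Hspa1a, against 0.881 to 2.15, and at 116 CPM for Igfbp1, against 305 to 356. The part of any library property in these values was not tested. No difference between the diets passed edgeR's interaction test.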

How the results depend on the processing

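Of 18 alternatives to the fit of running on OC, 16 gave 0 called genes. DESeq2 called 1, and leaving out each of the 10 OC libraries gave 0 to 1, in both cases Paqr9. At an unadjusted p under 0.05, leaving out single libraries gave 298 to 1421 genes, and the other alternatives lay within 1.5 times the 694. For the interaction DESeq2 called 119 genes, leaving out single libraries gave 0 to 2, and the other alternatives gave 0. Named genes were not called, so a change of sign in their fitted value is no reversal. Of 2663 such values under alternatives, 2 passed (Paqr9) and 20 changed sign with a move of more than 1 SE, among them Des, Srl and Pygm without OC sedentary replicate 3, at 0.27, 0.65 and 1.12. Of 810 list medians, 3 moved by more than 1 SD between libraries: hepatocyte markers to -0.05 and apolipoproteins to -0.06 with the length trend removed, and CAR, PXR and AHR targets to -0.26 without the libraries with muscle transcripts. The cause was not tested. No paired analysis was possible because the labels give no replicate numbers. List members without an intact line were not analysed here. The precision is set by 5 mice a group.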
